A study of Drosophila melanogaster with 4 samples.

Results

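The regions described here are the binding clusters of the cohesin subunit Smc3 at the centromeric ends of the left arms of chromosomes 2 and 3 of Drosophila melanogaster. A cluster was a member when its midpoint lay in the last 2 Mb of 2L (from base 21011545 to the end of the sequence at 23011544) or of 3L (from base 22543558 to 24543557), or when it lay on 2LHet, a separate 368.872 kb scaffold of heterochromatin from the same arm. Coordinates refer to release 5 of the FlyBase genome throughout. Replicate 1 held 367 members among 7858 clusters, of which 127 lay on 2L, 203 on 3L and 37 on 2LHet. Replicate 2 held 357 members among 6505 clusters, with 171 on 2L, 146 on 3L and 40 on 2LHet. The replicate-set list, which the authors deposited for the series as a whole, held 409 members among 15783 clusters, with 227, 152 and 30 on the same sequences. In replicate 1 members made up 4.67% of the clusters and 8.80% of the bases inside clusters, and in replicate 2 they made up 5.49% and 11.5%. These sequences are 3.13% of the 13 sequences with clusters. In the replicate-set list members made up 2.59% of the clusters, less than that share of sequence, and 7.09% of the bases inside clusters.

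Cohesin is a ring of proteins that holds sister chromatids together until they separate in mitosis, and that also takes part in folding chromosomes into loops. Smc3 and Smc1 are the long arms of the ring. Pericentric heterochromatin is the compact, repeat-rich chromatin on both sides of a centromere, marked by methylation of histone H3 at lysine 9 and by the protein HP1. Cohesin is known to be concentrated around centromeres, where cohesion lasts longest in mitosis. In flies the assembled arms run from gene-rich euchromatin into this heterochromatin, and genes such as light on 2L lie and work within it.

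Chromatin immunoprecipitation and sequencing was done on wild-type Oregon-R larvae of instar 3. There were 2 Smc3 ChIP samples, made with an affinity-purified rabbit polyclonal antibody, and 2 Input samples. The larval tissues were homogenized together, so less Smc3 per cell and fewer cells with Smc3 at a site cannot be told apart. Values here come from the cluster list of each ChIP replicate and from the replicate-set list, and no values of the Input samples were used. The free-text description of ChIP replicate 2 names input DNA alone, against its title and source name, which were followed. The labels do not tie the replicates to different batches of animals, so their spread may be technical only, and the depth of each sample is unknown. With 2 replicates an exact two-sided sign-flip permutation test cannot give a p below 0.5, so no difference below could pass 0.05. Each difference is set against the SD between replicates instead.

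At the outer edge of the 2 Mb the clusters were sparse and small. The members nearest to that edge on 2L ran from 21010842 to 21012858 in replicate 1 (score 0.76) and from 21036611 to 21038059 in replicate 2 (score 0.71). The clusters just outside it ended at 20983641 in replicate 1 (score 0.53) and at 20990802 in replicate 2 (score 0.67). On 3L the first members started at 22545078 in replicate 1 (score 0.75) and at 22548459 in replicate 2 (score 1.27). The last clusters outside scored 0.34 and 0.80. The score is the authors' own value per cluster, read here as a log2 enrichment. Levels of the score are compared only within a list, and scores of different lists that stand side by side are each on the scale of their own list.

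On both arms sparsely bound sequence gave way to densely bound sequence towards the centromere. Cover, the percent of bases inside clusters, was measured in 40 windows of 50 kb per arm. The border was placed at the step between 2 levels that left the smallest sum of squares. This search returns 1 border per arm by design, and more levels or a gradual rise were not fitted. On 3L the first window of the dense side started at base 22993558 in all 3 lists, 1.55 Mb from the end of the sequence. On 2L it started at 22161545 in replicate 1 and at 22111545 in the other 2 lists, 0.85 and 0.9 Mb from the end. The replicates thus placed the 2L border 1 window apart (mean 22136545 ± 35355.3 bp, SD, n = 2), and the 3L border in the same window. With windows of 100 kb the 3L border had the same mean but an SD of 70710 bp, so at that size the replicates did not place it together. The step accounted for 80.6% and 84.9% of the variance of window cover on 2L in replicates 1 and 2, and for 79.5% and 86.6% on 3L. The side towards the centromere is called inner below and the other side outer.

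**Figure D1:**
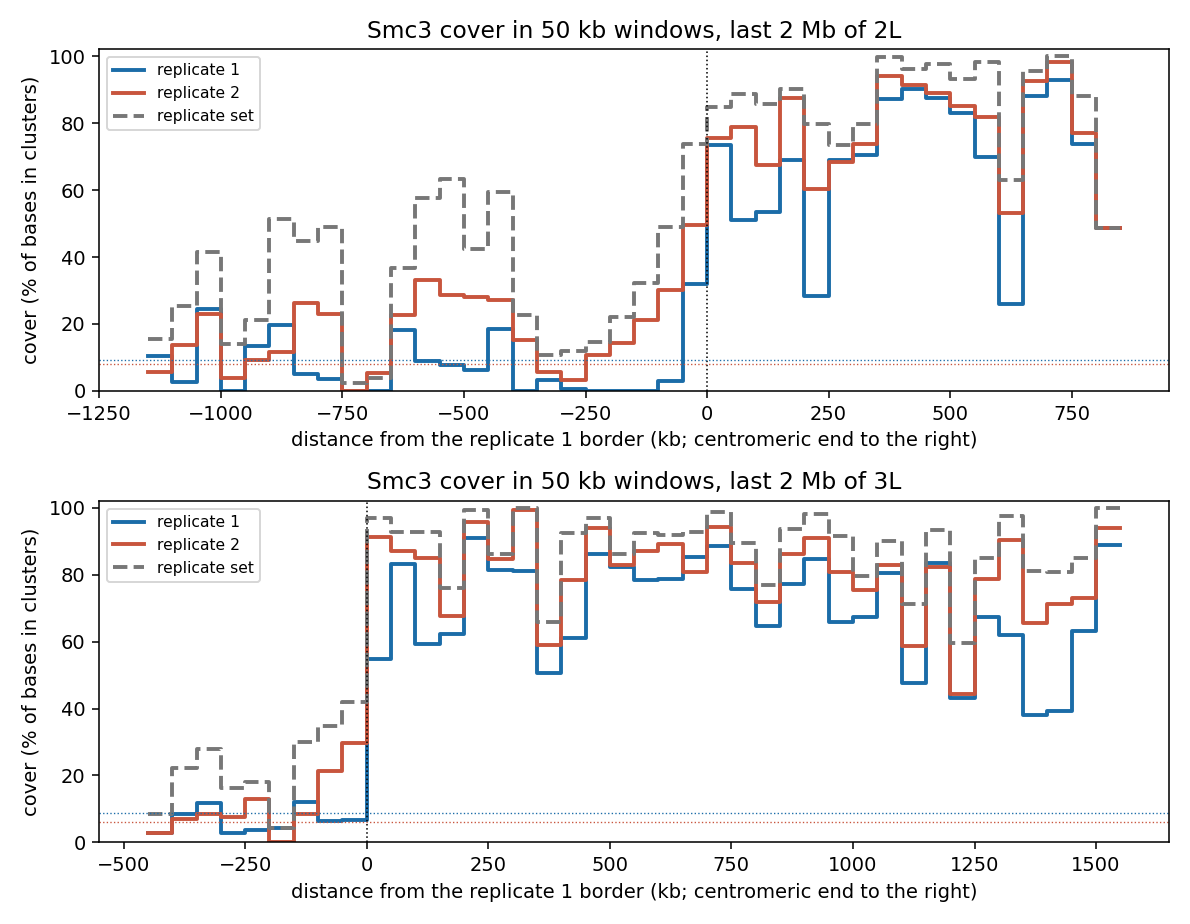
Cover in percent of bases (y axis) in each 50 kb window of the last 2 Mb of 2L (top) and 3L (bottom), against distance from the border of replicate 1 in kb (x axis), for both replicates (solid lines) and the replicate-set list (dashed). Horizontal dotted lines are the mean cover of the rest of the arm, 9.19% and 8.13% on 2L and 8.88% and 6.02% on 3L in replicates 1 and 2; inner windows lie between 26.1% and 98.2% on 2L and between 38.0% and 99.4% on 3L in the 2 replicates.

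The windows on each side of the border showed how abrupt the change was. On 3L the first inner window was covered to 54.8% in replicate 1 and the last outer window to 6.68%. In replicate 2 these windows held 91.1% and 29.7%, and in the replicate-set list 96.9% and 41.9%. On 2L the window from 22161545, inner in both replicates, was covered to 73.4% in replicate 1 and 75.6% in replicate 2. The window before it, from 22111545, which replicate 1 left on the outer side, held 32.1% in replicate 1 and 49.6% in replicate 2. Its cover lay between the levels of both sides. In windows of 10 kb, a size added after the data were examined, the step on 2L started at 22171545 in both replicates. There the window from 22171545 was covered to 78.8% and 80.5%, the next to 100% in both lists, and the window before it to 33.0% and 31.5%. On 3L the replicates did not place the step together at this size (mean 22998558, SD 7071 bp, n = 2). The 10 kb window from 22993558, the border of the 50 kb windows, was covered to 31.2% in replicate 1 and 86.9% in replicate 2. The one before it was covered to 0% and 18.1%.

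**Figure D2:**
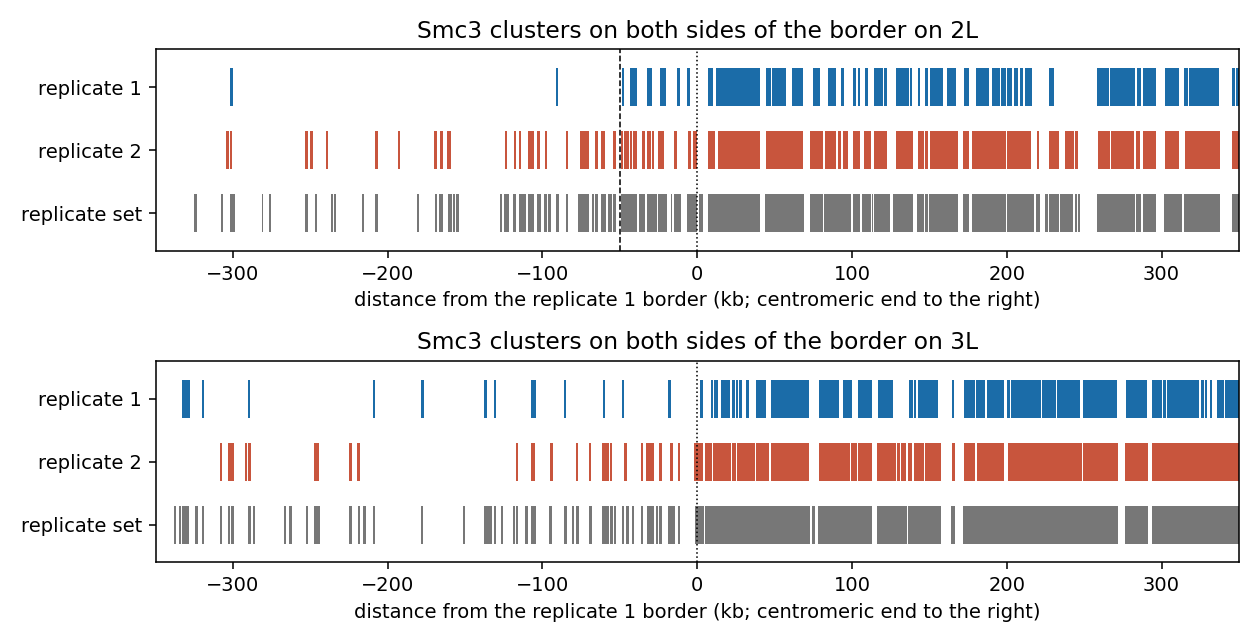
Clusters of each list (bars to scale, x axis in kb from the border of replicate 1) within 350 kb of the border on 2L (top) and 3L (bottom). The dotted line is the border of replicate 1 and the dashed line on 2L that of replicate 2, 50 kb outside it; bars are isolated on the outer side and run together on the inner side.

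The clusters next to the border showed the same change at single-cluster scale, with each list's own border used here. On 2L in replicate 1, the second inner cluster from the border, from 22173670 to 22202308, was 28639 bp wide with a score of 0.86. The outer cluster nearest to that border, from 22155219 to 22156684, was 1466 bp wide with a score of 0.53. By the border of replicate 2, used for the sides of replicate 1 below, it lay on the inner side. In replicate 2 the wide domain ran from 22174705 to 22202238 with a score of 1.12. On 3L the clusters at the border itself were small. The first inner clusters of replicate 1 ran from 22995594 to 22997327 (score 0.72) and from 23002113 to 23003494 (score 0.72). Replicate 2 had clusters there from 22991753 to 22997489 (score 0.90) and from 22998543 to 23003302 (score 0.84). One of the 3 widest stretches of 3L inside a cluster of each replicate lay a little further in, from 23041354 to 23065769, 24.4 kb long, with scores of 1.07 and 1.15.

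Each replicate was divided at the border found in the other replicate. On 3L both gave the same border, so the exchange changed nothing there. Because the border was placed where cover steps up, a difference in cover across it follows from its placing and describes the levels. Cluster widths and gaps make up cover, so their differences across the border are not independent of its placing either. On 2L the inner side was covered to 66.3% in replicate 1 and 77.9% in replicate 2, and the outer side to 6.65% and 17.9%. The difference was 59.8 percentage points ± 0.214 (SD, n = 2; exact permutation p = 0.5). On 3L the inner side held 70.1% and 80.8%, and the outer side 6.57% and 10.9%. That difference was 66.7 percentage points ± 4.54 (SD, n = 2; exact permutation p = 0.5). The SD between replicates on either side was at most 8.16 percentage points. In 16 of the 17 windows of 2L that were inner by both borders, and in 29 of 31 of 3L, replicate 2 had more cover than replicate 1.

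By the midpoint between the 2 levels, nearly all inner windows and no outer window were on the high side in either replicate. Each list was divided at its own border for these counts. On 2L, 15 of 17 inner windows of replicate 1 and 18 of 18 of replicate 2 lay above it. Over the whole arm, 4.13% of windows in replicate 1 and 4.35% in replicate 2 did. On 3L it was 30 of 31 in each replicate, against 6.11% of all windows of the arm in each. In the replicate-set list it was 17 of 18 inner windows of 2L, against 4.78% over the arm, and 31 of 31 of 3L, against 6.72%, with 2 outer windows of 2L also above. The border was placed on these same windows, so the counts describe the levels and test nothing. The rest of 2L had 4 windows above the midpoint in replicate 1 and 2 in replicate 2 among 420, and the rest of 3L had 0 among 451 in both. All 31 inner windows of 3L exceeded the highest window of the rest of the arm, 33.9% in replicate 1 and 26.7% in replicate 2, and 1 outer window of 3L in replicate 2 (29.7%) also did. In the replicate-set list 29 of 31 inner windows of 3L did. On 2L, 15 inner windows of replicate 1 exceeded the highest of the rest of the arm (42.8%), and 14 of replicate 2 did (62.5%).

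Inside the dense blocks cover was uneven, and 4 inner windows lay below the midpoint in a replicate. On 2L the window from 22761545 held 26.1% in replicate 1 and 53.1% in replicate 2, and the window from 22361545 held 28.3% and 60.3%. On 3L the window from 24193558 held 43.2% and 44.3%, and the window from 24343558 held 38.0% and 65.6%. Each lay under the midpoint in 1 replicate and above it in the other, so none was under it in both. The midpoints themselves differ, at 38.3% and 45.9% on 3L in replicates 1 and 2. The window from 24193558 was the lowest inner window of 3L in replicate 2, and in replicate 1 it lay well under the inner mean of 70.1%. That from 22761545 was the lowest of 2L in replicate 1. In replicate 2 it lay under the inner mean of 76.3%, taken by that replicate's own border. Across the inner windows, cover in the 2 replicates had a Spearman correlation of 0.86 on 2L (17 windows) and 0.69 on 3L (31 windows). Across the outer windows it was 0.44 on 2L (22 windows) and 0.32 on 3L (9 windows). These are descriptions, since neighbouring windows share clusters and the replicates share the sequence on which reads can be placed.

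The outer sides were unlike each other in the 2 replicates. On 2L the outer side is here the 22 windows before 22111545 in every list. In replicate 1 the outer side was no more covered than the rest of the arm: window means were 6.65% ± 7.64 (SD over 22 windows) on the outer side of 2L and 9.19% ± 7.62 (SD over 420 windows) on the rest of the arm. On 3L they were 6.57% ± 3.63 (SD over 9 windows) and 8.88% ± 7.03 (SD over 451 windows). In replicate 2 the outer side was the more covered of the pair on both arms. It had means of 16.4% ± 10.2 on the outer side of 2L against 8.13% ± 7.64 on the rest, and of 10.9% ± 9.28 on that of 3L against 6.02% ± 5.29. Of the 22 outer windows of 2L, 16 in replicate 2 and 8 in replicate 1 were above the median window of the rest of the arm. The 2 replicates went opposite ways on each arm, so no direction of cover for the outer side holds in both. In the replicate-set list the outer side was the more covered, with window means of 31.4% against 22.0% on 2L and 22.7% against 20.1% on 3L.

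The replicates disagreed directly outside the 2L border. From 21861830 to 22070081, 208 kb, replicate 1 had no cluster, and this was longer than any gap of replicate 1 on the rest of 2L (167 kb). Replicate 2 held 14 clusters there that covered 12.6% of the bases, with a mean score of 0.81, and the replicate-set list held 26 that covered 21.0%. Going inwards over the 5 windows that start at 21861545, 21911545, 21961545, 22011545 and 22061545, cover in replicate 2 was 3.21%, 10.9%, 14.4%, 21.3% and 30.1%. In replicate 1 the same windows held 0.57%, 0%, 0%, 0% and 3.08%. Cover in replicate 2 was thus higher in each window closer to the border, and that in replicate 1 stayed near 0 until the transition window at 22111545. On 3L the last 2 outer windows of replicate 2, at 21.2% and 29.7%, were also above those of replicate 1, at 6.44% and 6.68%. This stretch was chosen after its values were seen.

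A stretch of 2L further out was nearly free of clusters in every list. The windows from 21411545 and 21461545 held 0% and 0% in replicate 1, 0% and 5.24% in replicate 2, and 2.32% and 4.00% in the replicate-set list. The 2 widest gaps common to both replicates on the outer side of 2L lay here, from 21401387 to 21468430 (67.0 kb) and from 21471053 to 21543206 (72.2 kb). The single cluster of replicate 2 between these gaps scored 2.41, the highest on the outer side of 2L in that list, and replicate 1 had none there. Within 10 kb past the second gap stood the highest-scoring outer cluster of 2L found in both replicates, which ran from 21549639 to 21551674 with a score of 1.86 in replicate 1 and from 21549388 to 21551441 with a score of 1.60 in replicate 2. Its neighbour, from 21543956 to 21546659 in replicate 1, scored 1.09, and the cluster from 21543207 to 21546757 in replicate 2 scored 1.32. Genes were not placed at these coordinates, since the gene table at hand is on release 6.

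Inner clusters were wide and outer clusters were narrow, with outer median widths close to those of the rest of the arm except on 3L in replicate 1. There the outer median, over 16 clusters, lay below the lower quartile of the rest of the arm (1666.5 bp). On 2L the median width was 3413 bp in replicate 1 and 5442 bp in replicate 2 on the inner side, 1964 and 1778 bp on the outer side, and 1998 and 1597.5 bp on the rest of the arm. On 3L it was 3897 and 7078 bp on the inner side, 1510.5 and 1657 bp on the outer side, and 1982.5 and 1619 bp on the rest. Inner minus outer came to 2556.5 bp ± 1566 on 2L and 3903.75 bp ± 2146 on 3L (SD, n = 2; exact permutation p = 0.5 for each). Each difference exceeded its SD between replicates and had the same sign in both. No member of either replicate was narrower than 1303 bp.

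On these arms nearly all domains of at least 10 kb lay on the inner sides, while most such domains of the lists, 218 in replicate 1 and 324 in replicate 2 over all sequences, lay on other sequences. On 2L they were 13 of 94 inner clusters in replicate 1, where such domains were 2.77% of all clusters of the list, and 19 of 71 in replicate 2, where they were 4.98%. On 3L they were 30 of 187 and 46 of 121. There was none among 33 and 100 outer clusters of 2L or among 16 and 25 of 3L. These domains held 48.8% of the inner cluster bases of 2L in replicate 1 and 66.0% in replicate 2. On 3L they held 44.9% and 72.0%. The rest of the arms, held 2 such domains on 2L in replicate 2 (of 948 clusters) and 0 on 2L in replicate 1 (of 931) and on 3L in either (of 980 and 767).

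The widest common stretches were found at similar edges in both replicates. On 2L, replicate 1 had a single domain from 22577097 to 22643842 (66.7 kb, score 1.25) and replicate 2 one from 22576789 to 22643981 (67.2 kb, score 1.53), and the replicate-set list had one of 68.0 kb. The last domain of 2L ran from 22959958 to 22985807 in replicate 1 (score 1.42) and from 22958626 to 22985860 in replicate 2 (score 1.62). After it, the final 25.7 kb of the sequence held no cluster in either replicate, and 25.6 kb held none in the replicate-set list. On 3L the last domain reached the end of the sequence in every list. It started at 24517661 in replicate 1 (score 1.35), at 24505183 in replicate 2 (score 1.51) and at 24497102 in the replicate-set list (score 1.36). The widest common stretch of 3L, from 23515431 to 23543829 (28.4 kb), scored 1.12 in replicate 1 and 1.42 in replicate 2, where the domain ran on to 23565296.

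The replicates often divided the same sequence differently. The domain of replicate 2 from 23436115 to 23488813 on 3L, 52.7 kb wide with a score of 1.52, overlapped 8 clusters of replicate 1, each between 1.50 and 11.9 kb wide with scores from 1.08 to 1.45. On 2L the domain of replicate 2 from 22506729 to 22539724 (33.0 kb, score 1.58) overlapped 5 clusters of replicate 1. On the inner side of 3L, 59.4% of replicate 1 clusters lay wholly inside a replicate 2 cluster, and 6.61% of replicate 2 clusters lay wholly inside a replicate 1 cluster. On 2L the shares were 48.9% and 15.5%. Wide domains took the highest share in the replicate-set list, where 25 of 69 inner clusters of 2L and 44 of 96 of 3L were at least 10 kb wide, against 2.57% of all its clusters.

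**Figure D3:**
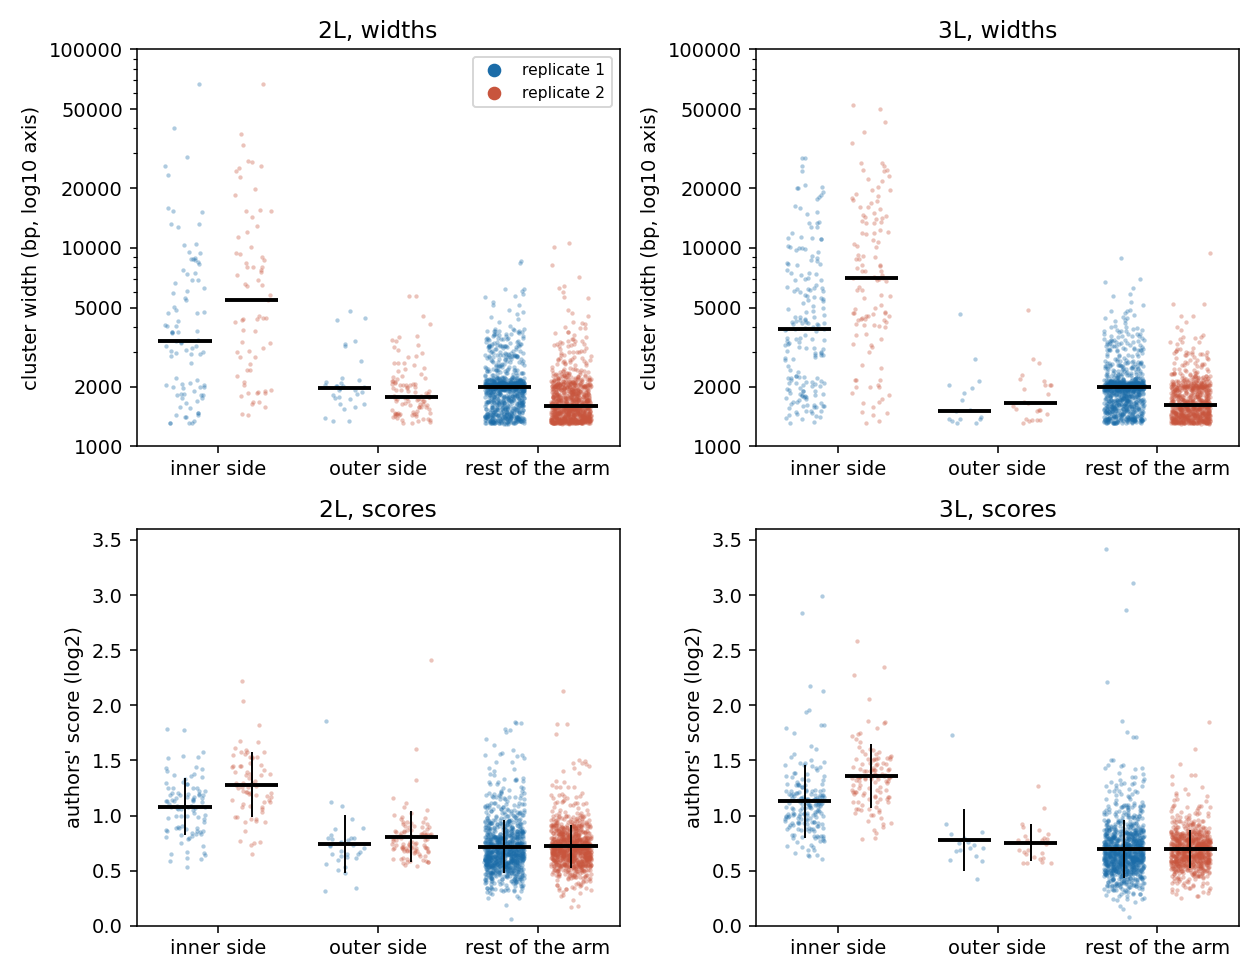
Width in bp on a log axis (top) and score in log2 units (bottom) of every cluster (points) on the inner side, the outer side and the rest of 2L (left) and 3L (right), by replicate. Thick bars are the median width or the mean score and thin bars the SD over clusters; inner medians of 3413 to 7078 bp stand above outer medians of 1510.5 to 1964 bp.

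Inner clusters followed each other closely. On 2L the median gap between neighbouring clusters was 1415 bp in replicate 1 and 1384.5 bp in replicate 2 on the inner side, and 12527.5 and 4035 bp on the outer side. On 3L it was 1188.5 and 1299 bp on the inner side, and 22545 and 7165.5 bp on the outer side. The inner gaps of the 2 replicates differed little (SD 21.6 bp on 2L and 78.1 bp on 3L, n = 2), while the outer gaps differed far more (SD 6005 bp and 10875 bp). Inner minus outer was -6881.5 bp ± 5984 on 2L and -13611.5 bp ± 10953 on 3L (SD, n = 2; exact permutation p = 0.5 for each), only a little more than the SD. Gaps under 1 kb made up 35.5% and 44.3% of the inner gaps of 2L in replicates 1 and 2, and 43.5% and 46.7% of those of 3L. On the outer side they were 12.5% and 16.2% on 2L, and 0% and 16.7% on 3L.

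Some inner gaps were found at the same place in both replicates. On 2L the widest of these ran from 22787205 to 22801784 (14.6 kb), and the next from 22407343 to 22420017 (12.7 kb). On 3L the widest ran from 23818434 to 23832347 (13.9 kb), from 24206800 to 24218542 (11.7 kb) and from 24126378 to 24137286 (10.9 kb). In this order, the replicate-set list had 2.02 and 1.52 kb of cluster in these gaps on 2L, and 2.38, 2.31 and 0.374 kb on 3L. Together with the third gap of 2L, from 22499054 to 22506728 (7.67 kb), the 3 of each arm made up 21.5% of the inner bases free in both replicates on 2L and 14.4% on 3L. The longest inner gap of replicate 1 on 2L, from 22780321 to 22811040 (30.7 kb), was in part filled in replicate 2, which held 3 clusters there over 30.0% of the bases, with a mean score of 1.53. On 3L the longest gap of replicate 1, from 24332047 to 24353021 (21.0 kb), was covered to 58.8% in replicate 2.

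Within each list the inner clusters had higher scores than the outer clusters. On 2L the mean score was 1.08 ± 0.26 on the inner side (SD over 94 clusters) and 0.74 ± 0.27 on the outer side (33 clusters) in replicate 1. In replicate 2 it was 1.28 ± 0.29 (71 clusters) and 0.81 ± 0.23 (100 clusters). On 3L it was 1.13 ± 0.33 (187 clusters) and 0.77 ± 0.28 (16 clusters) in replicate 1, and 1.36 ± 0.29 (121 clusters) and 0.75 ± 0.17 (25 clusters) in replicate 2. The mean difference over replicates was 0.40 ± 0.10 on 2L and 0.48 ± 0.18 on 3L (SD, n = 2; exact permutation p = 0.5 for each). Outer means lay near those of the rest of the arm, which were 0.72 on 2L in both replicates and 0.70 on 3L in both.

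A score of at least 1 was reached by 59 of 94 inner clusters of 2L in replicate 1, where 31.1% of all clusters reached it, and by 58 of 71 in replicate 2, where 32.4% did. On 3L it was reached by 121 of 187 and 112 of 121. On the outer sides, 3 of 33 and 9 of 100 clusters of 2L reached it, and 1 of 16 and 2 of 25 of 3L. In the replicate-set list 42 of 69 inner clusters of 2L and 69 of 96 of 3L did, against 14.5% of all its clusters. These whole-list shares include the inner clusters themselves.

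Narrow clusters alone gave the same order of scores. Among clusters under 2 kb on 2L, the inner mean was 1.00 ± 0.30 (SD over 25 clusters) and the outer mean 0.63 ± 0.15 (18 clusters) in replicate 1. In replicate 2 these were 1.09 ± 0.44 (13 clusters) and 0.73 ± 0.11 (62 clusters). On 3L they were 1.00 ± 0.43 (43 clusters) and 0.71 ± 0.14 (12 clusters) in replicate 1, and 1.39 ± 0.54 (12 clusters) and 0.71 ± 0.18 (16 clusters) in replicate 2. The widest domains were the most alike in score. Inner domains of at least 10 kb on 3L had a mean of 1.14 with an SD of 0.10 over 30 domains in replicate 1, and of 1.38 with an SD of 0.14 over 46 in replicate 2. Score and width were only weakly related on the inner side, with Spearman correlations across clusters from 0.24 to 0.40 over the 2 arms and replicates. In replicate 1 the inner value was the lower, at 0.27 on 2L (rest of that arm 0.57) and 0.33 on 3L (rest 0.61). In replicate 2 the order on 2L was the opposite, with 0.40 inside and 0.28 on the rest. On 3L that replicate had similar values, 0.24 inside and 0.29 on the rest. These correlations describe clusters of 1 list and carry no test.

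Scores were lower just inside the border than deeper in. In the first 250 kb inside it on 2L the mean score was 0.98 ± 0.26 (33 clusters) in replicate 1 and 1.22 ± 0.33 (28 clusters) in replicate 2, and in the next 250 kb it was 1.15 ± 0.20 (24 clusters) and 1.43 ± 0.25 (14 clusters). On 3L the first 250 kb had means of 0.98 ± 0.23 (29 clusters) and 1.20 ± 0.25 (25 clusters), and the next 250 kb of 1.13 ± 0.26 (30 clusters) and 1.54 ± 0.32 (17 clusters). The second bin was the higher in both arms and both replicates, by about 1 SD over clusters or less, and no test was made of it. Cover followed the same order on 2L, at 55.8% and 74.0% in the first 250 kb and 69.0% and 83.4% in the next. On 3L cover was 70.0% and 85.3% in the first 250 kb and 72.1% and 83.1% in the next, with no common order in the replicates. Towards the end of 3L cover in replicate 1 was lower again, at 53.9% in the bin from 1250 to 1500 kb inside the border, while replicate 2 held 75.7% there.

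**Figure D4:**
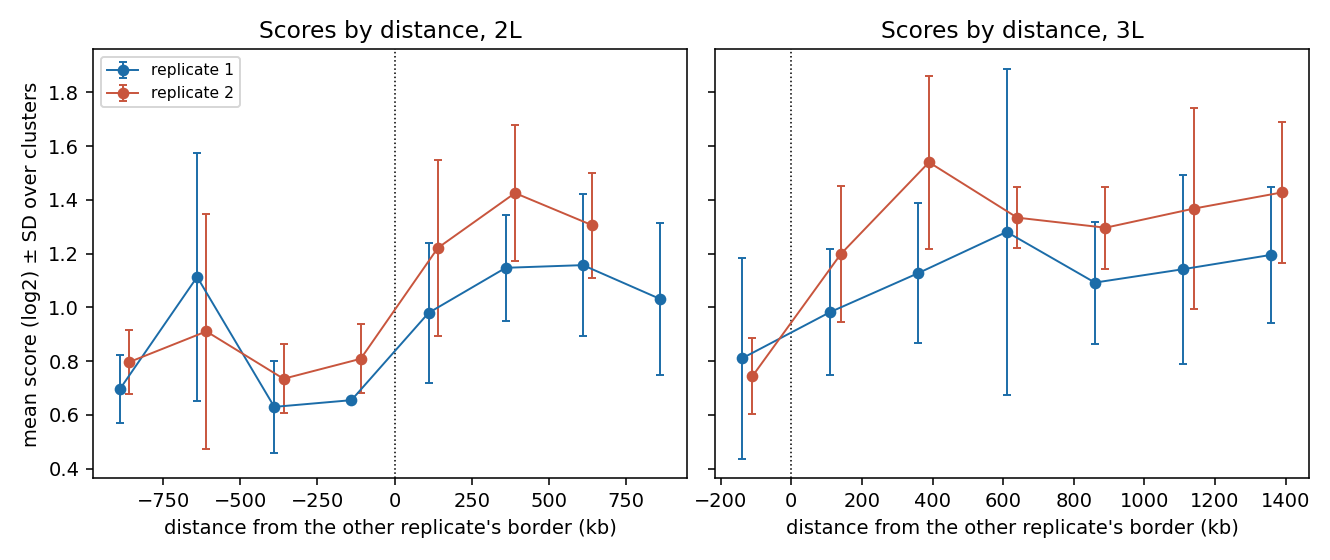
Mean score in log2 units (y axis, bars are the SD over clusters) in bins of 250 kb by distance from the border found in the other replicate (x axis, kb, centromeric end to the right) on 2L and 3L. Inner means run from 0.98 to 1.28 in replicate 1 and from 1.20 to 1.54 in replicate 2; the outer bin next to the 2L border held 1 cluster in replicate 1 and so has no bar.

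The highest inner score of each arm in each replicate belonged to a cluster under 5 kb. Among the clusters found in both replicates, the highest of replicate 1 on 3L ran from 23506469 to 23509369 (score 2.17). It overlapped a cluster of replicate 2 that scored 1.53. The highest of replicate 2 ran from 24088776 to 24090586 (2.58), and its partner in replicate 1, from 24088685 to 24091638, scored 2.13, the second among the shared clusters of that list. On 2L the highest of replicate 1 ran from 22690026 to 22694862 (1.78) and overlapped a cluster of replicate 2 from 22680471 to 22694853 (1.68). That cluster, 14383 bp wide, was itself among the highest-scoring shared inner clusters of 2L in replicate 2. The highest shared cluster of replicate 2 on 2L ran from 22542558 to 22544592 (2.04), and its partner in replicate 1 scored 1.41. The highest score of all inner members of 3L in replicate 1, 2.99, was that of a 1615 bp cluster from 23663432 to 23665046. With its neighbour from 23666093 to 23668312 (score 2.84) it had no partner in replicate 2.

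Nearly all inner clusters of replicate 1 were found in replicate 2, by an overlap of at least 1 bp. On 2L the inner share of replicate 1 was 97.9% (92 of 94, 95% exact Clopper-Pearson interval 92.5 to 99.7) and the outer share 42.4% (14 of 33, 25.5 to 60.8). Over the whole list of replicate 1, 51.8% of clusters were shared. In replicate 2 the inner share of 2L was 84.5% (60 of 71, 74.0 to 92.0) and the outer share 22.0% (22 of 100, 14.3 to 31.4), against 54.6% over its whole list. On 3L the inner and outer shares were 96.8% (181 of 187) and 31.3% (5 of 16) in replicate 1. In replicate 2 they were 90.9% (110 of 121) and 20.0% (5 of 25). The intervals cover counting error only. Where most bases are covered, most clusters overlap whatever their position, so an inner share near 100% says little about how well positions coincide.

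By bases, both replicates covered the same 65.3% of the inner side of 2L, from 22161545 on, and 67.3% of that of 3L. Replicate 1 alone covered 3.01% and 2.82%, replicate 2 alone 12.5% and 13.6%, and neither 19.1% and 16.3%. Of the inner cluster bases of replicate 1, 95.6% on 2L and 96.0% on 3L were inside clusters of replicate 2, and the converse shares for replicate 2 were 83.9% and 83.2%. On the outer side, both replicates covered the same 2.77% of 2L and 1.74% of 3L. Of the outer cluster bases of replicate 1, 41.7% and 26.5% were inside clusters of replicate 2, and the converse shares for replicate 2 were 16.8% and 16.0%. On the rest of 2L these shares were 32.7% for replicate 1 and 37.0% for replicate 2, and on the rest of 3L 27.4% and 40.4%.

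Where clusters matched 1 to 1, widths were more closely related than scores on the inner side. The Spearman correlation of widths was 0.88 over 23 pairs on 2L and 0.86 over 43 pairs on 3L, and that of scores was 0.51 and 0.72. On the outer side of 2L, 12 pairs had 0.76 for widths and 0.81 for scores, and on that of 3L 5 pairs had 0.90 and -0.50. On the rest of the arms it was 0.29 and 0.23 for widths (351 and 323 pairs) and 0.23 and 0.18 for scores. These correlations are across clusters of the same sequence and carry no test.

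The replicate-set list held clusters that neither replicate had. On the inner side these were 10 of 69 on 2L and 13 of 96 on 3L, on the outer side 61 of 158 (38.6%) and 21 of 56 (37.5%), and on the rest of the arms 45.9% and 47.5%. Inner clusters of this kind scored higher than those found in both replicates, with means of 1.38 against 1.08 on 2L and 1.81 against 1.17 on 3L. On the outer side the order was the opposite, with means of 0.56 against 0.70 on 2L and 0.54 against 0.65 on 3L. The sources used here do not give how the replicates were combined for it.

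On 2LHet clusters covered 39.2% of bases in replicate 1 and 53.1% in replicate 2, less than the inner side of 2L in the same lists (66.3% and 77.9%). Its domains were also narrower in both replicates, with median widths of 3108 bp over 37 clusters and 2510.5 bp over 40, against 3413 and 5442 bp. In the replicate-set list the order was reversed, at 5352 bp on 2LHet and 4881 bp on the inner side of 2L. At least 10 kb wide were 2 clusters in replicate 1 (5.41%, against 2.77% of the whole list) and 5 in replicate 2 (12.5%, against 4.98%). Its scores were higher, with means of 1.28 ± 0.39 and 1.52 ± 0.60 (SD over clusters) against 1.08 ± 0.26 and 1.28 ± 0.29 on the inner side of 2L. A score of at least 1 was reached by 26 of 37 clusters in replicate 1, against 31.1% of the whole list, and by 34 of 40 in replicate 2, against 32.4%. Median gaps were 2760 and 1141 bp.

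**Figure D5:**
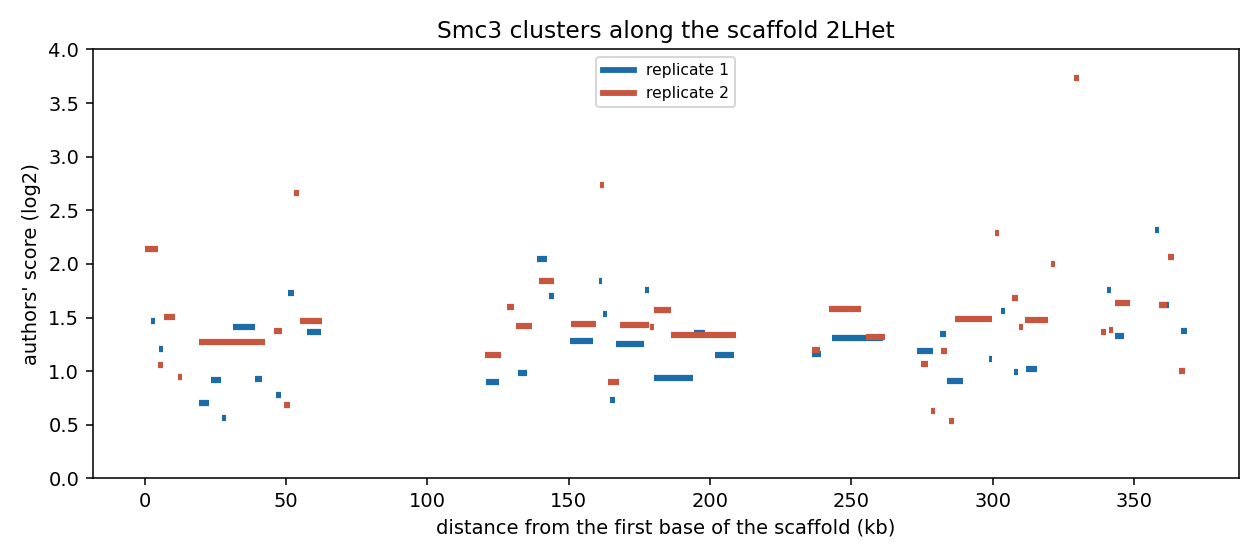
Clusters of both replicates along 2LHet (x axis, kb from the first base of the scaffold; horizontal bars span each cluster) at the height of their score in log2 units (y axis). No bar lies in the common gap of 57.9 kb, and the highest bar, at 3.74, belongs to a cluster of 1571 bp in replicate 2.

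A common gap from 62627 to 120482, 57.9 kb long, and another from 209095 to 236183, 27.1 kb long, made up 53.8% of the scaffold bases free in both replicates. The replicate-set list had 0.251 and 0.17 kb of cluster in them. The widest common stretch ran from 243163 to 253323, inside a cluster of 18.0 kb in replicate 1 (score 1.31) and of 11.2 kb in replicate 2 (score 1.58). A domain of replicate 2 from 19355 to 42412 (23.1 kb, score 1.28) lay over 5 clusters of replicate 1. Scores and widths had a Spearman correlation of -0.30 in replicate 1 and 0.08 in replicate 2, unlike the positive values on the inner sides of the arms.

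The single highest score of 2LHet in each replicate was that of a narrow cluster with no partner in the other replicate. The cluster of replicate 2 from 328789 to 330359, 1571 bp wide, scored 3.74, and that from 52897 to 54742 scored 2.66, and neither had a partner in replicate 1. The highest of replicate 1, from 357374 to 358852, scored 2.31 and had no partner in replicate 2. Among shared clusters the highest were from 160922 to 162625 in replicate 2 (2.74, with a partner of 1.84 in replicate 1) and from 138851 to 142198 in replicate 1 (2.05, with a partner of 1.84 in replicate 2). In all, 94.6% of the clusters of replicate 1 (35 of 37) and 75.0% of those of replicate 2 (30 of 40) were shared. Over 15 pairs matched 1 to 1, the scores had a Spearman correlation of -0.09, against 0.51 over the 23 pairs of the inner side of 2L, while widths had 0.78.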

How the data were processed

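Smc3 ChIP-seq lists of 2 ChIP replicates and 1 replicate-set list were used. Samples were grouped by title. Descriptions do not separate ChIP from Input: that of ChIP replicate 2 names input DNA alone, so its group rests on title and source name. The submitters' processing notes name Bowtie 0.12.7. FlyBase release 5 is the build, per the file headers. The sources used here do not give the peak caller, its thresholds, the treatment of repeat reads or how replicates were combined. Each cluster's score in the authors' lists was taken to be on a log2 scale, from its values. Read counts were not analysed here, so the depth per sample is unknown.

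Clusters past a sequence end were clipped there (1 member in each list). Sides were assigned by midpoint, cover by bases. Gaps were measured between neighbouring clusters of 1 side. Replicate sides used the border of the other replicate, and the replicate-set list its own. Step levels, midpoint counts and the clusters next to a border used each list's own border. The border search was tested on simulated lists: 48 of 50 borders on 2L and 50 of 50 on 3L were found within 50 kb. The largest miss on 2L was 119.8 kb. These lists drew widths and gaps from replicate 1 alone, with outer values from the rest of the arm and an abrupt change at the border. They therefore do not show how well a border is placed where cover rises gradually, as in replicate 2 on 2L. Named regions were the widest common stretches and gaps, the highest shared scores, the clusters next to each border and exceptional windows; other regions were chosen after their values were seen. The members, measures and settings were chosen with earlier results of these data known. Alternatives were other windows and borders, stricter scores, joined clusters, other overlap rules and single replicates. Scripts ran in Python 3.11.15 with scipy 1.17.1, pandas 2.3.3, numpy 2.4.6 and matplotlib 3.10.9.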

Additional observations from a re-analysis of the deposited data

How the results depend on the processing

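The inner minus outer differences in cover, median width, median gap and mean score were computed under the alternatives tried. Their direction on both arms was kept in 96 of 96 values. These values are not separate checks, since windows of 25 kb and the midpoint-crossing border gave the main values again on both arms. The direction of cover follows from how the border is placed. Widths and gaps make up cover, so their directions are tied to that placing too. No setting can pass 0.05 with 2 replicates. Leaving out 1 replicate each gave cover differences of 59.7 and 60.0 percentage points on 2L and 63.5 and 69.9 on 3L, width differences of 1449 to 3664 bp and 2386.5 to 5421 bp, gap differences of -11112.5 to -2650.5 bp and -21356.5 to -5866.5 bp, and score differences of 0.34 to 0.47 and 0.35 to 0.60. The same settings gave borders of 22111545 and 22161545 on 2L and 22993558 on 3L, inner shares found in the other replicate of 84.5% to 97.9% and 90.9% to 96.8%, and outer shares of 22.0% to 42.4% and 20.0% to 31.3%. Joining clusters across 1 kb gave width differences of 5677 bp on 2L and 8385.75 bp on 3L, since joined clusters are wider by construction. Clusters at or above the median score gave a gap difference of -28620 bp and a score difference of 0.27 on 3L; the cause was not tested. With the rest of the arm in place of the outer side, added after the data were examined, the gap difference on 2L was -10410.2 bp, and 38.8% of clusters on that side of 3L were shared. The 3L border kept its mean of 22993558 with windows of 100 kb, but with an SD of 70710 bp between replicates. Its mean moved to 23000001 with windows at multiples of 50 kb. With clusters at or above the median score it was 23018558 ± 35360 bp (SD, n = 2). With windows of 10 kb, added after the data were examined, it was 22998558 ± 7071 bp (SD, n = 2). In the latter 2 settings the replicates placed the border apart. With an overlap of at least 50% of the cluster the mean inner shares were 75.5% on 2L and 80.1% on 3L, and with 50% of both clusters 47.2% and 49.0%. Windows of 100 kb gave an outer share on 3L of 34.0%. No paired analysis was possible because the Input samples that share replicate numbers with the ChIP samples have no values here. The depth is unknown, and with 2 replicates every SD rests on a single difference.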
